A study of Mus musculus with 4 samples.

Results

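Interleukin 1 is an inflammatory cytokine that binds the signalling receptor IL1R1. The receptor then pairs with the accessory protein IL1RAP and, through the adaptor MYD88, releases the transcription factor NF-κB from its inhibitor IκBα, which *Nfkbia* encodes. Islet beta cells are known to be sensitive to interleukin 1. The genes described were the ligand *Il1b*, the receptor antagonist *Il1rn*, the receptors *Il1r1* and *Il1r2*, the accessory chain *Il1rap*, the adaptor *Myd88*, the feedback inhibitors *Nfkbia* and *Tnfaip3*, and the chemokines *Cxcl1* and *Ccl2*. They were chosen by name, as the 10 genes of this pathway whose symbols were looked up in the deposited table of 28047 distinct entries. Both *Il1r1* transcripts were used, and each other gene was represented by its entry of highest mean RPKM, which gave 11 entries.

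The libraries were made from whole pancreatic islets of male C57bl6 mice that were 3 months old, and all islets came from 1 pool. After a night in medium with 11 mM glucose the islets were held for 2 h at 2.8 mM glucose and then either kept at 2.8 mM or moved to 16.8 mM glucose. Per the series' design text and the methods the last step took 12 h in both groups, but by the labels of the single samples it took 2 h at 2.8 mM and 12 h at 16.8 mM, so a difference in time cannot be told apart from glucose if the labels are right. There were 2 libraries per group, each of 100 islets. Since the libraries shared 1 pool, p-values measure only the spread between these libraries, and in whole islets fewer cells of a type and less RNA per cell cannot be told apart.

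Values were deposited as RPKM, the reads of an entry scaled to its length and to the depth of the library. Low values were, for most genes with a single annotated span, whole numbers of reads when exons and introns together, from the first base of a transcript to its last, were taken as its length, and the depths recovered on this basis were between 50825000 and 60730000 reads. A transcript with long introns therefore had a low RPKM for its reads. Every transcript with a mean of at least 1 RPKM was tested with limma on log2(RPKM + 0.5), and 33.4% of 7867 were called at an adjusted p under 0.05, with 838 higher and 1790 lower at 16.8 mM glucose. Under quantile normalization the calls were split into 1576 higher of 3730. Since 7 of the 11 entries lay under that level, they were also tested by voom on the reconstructed reads of 17567 transcripts with a mean of at least 20 reads, where 42.6% were called, 13.7% higher and 28.9% lower. Another limma fit without a minimum tested all 11 entries and called 14.1% of 26272 transcripts, 4.56% higher and 9.52% lower. None of the 4 entries above the minimum turned its direction under quantile normalization or median centring.

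At 16.8 mM glucose *Il1b*, both *Il1r1* entries, *Il1r2* and *Tnfaip3* were higher, *Il1rap* was lower, and *Il1rn*, *Myd88*, *Nfkbia* and *Ccl2* did not pass the threshold, in the fit to reads (voom). That was 5 higher and 1 lower of 10 entries tested, or 5 of 9 genes, since the *Il1r1* entries share all reads of the shorter span. *Cxcl1* had too few reads for that fit. The median log2 fold change of the 10 entries was 0.44, against -0.12 over all transcripts of that fit. This median counts both *Il1r1* entries, and the longer one includes reads of an lncRNA, as described below. The genes were also chosen with earlier results of these data known, so the median is no test of the group. In the fit to RPKM with the minimum (limma) 2 of 4 entries were called, both of *Il1r1*, 1 of 3 genes, and in the fit without a minimum 4 of 11, namely *Il1b*, both *Il1r1* entries and *Tnfaip3*. Without any 1 of the libraries these 4 entries had adjusted p from 0.136 to 0.230 in the fit without a minimum (limma), in which no transcript then came below 0.052.

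**Figure D1:**
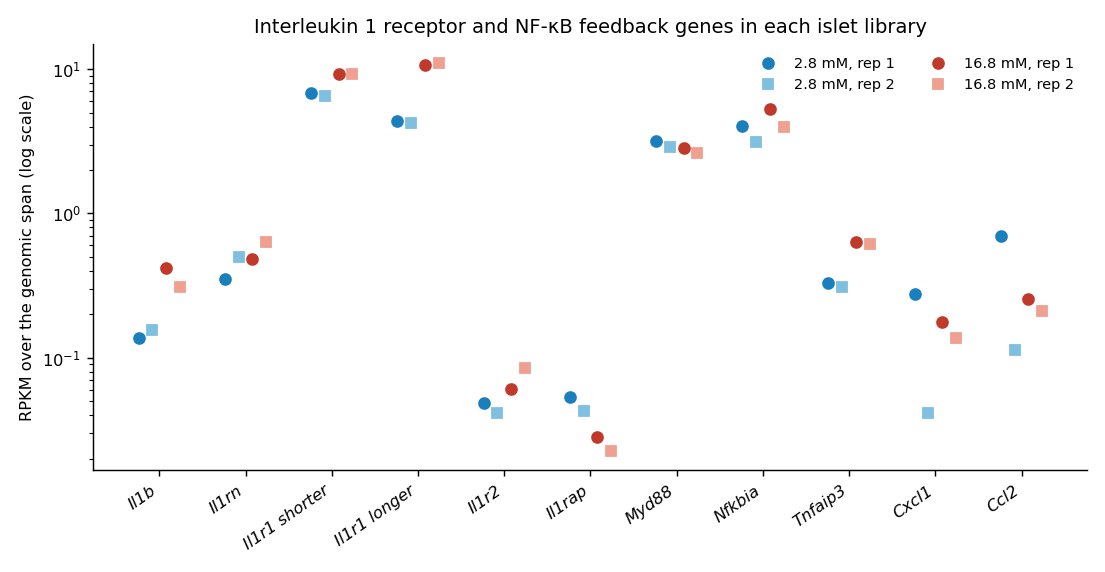
RPKM over the genomic span on a log axis for the 11 entries, with 1 point per library (blue, 2.8 mM; red, 16.8 mM; circles, replicate 1; squares, replicate 2). The red points lie above the blue ones for *Il1b*, *Il1r1*, *Il1r2* and *Tnfaip3* and below them for *Il1rap* and *Myd88*, whereas *Ccl2* and *Cxcl1* spread most between the libraries at 2.8 mM.

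**Figure D2:**
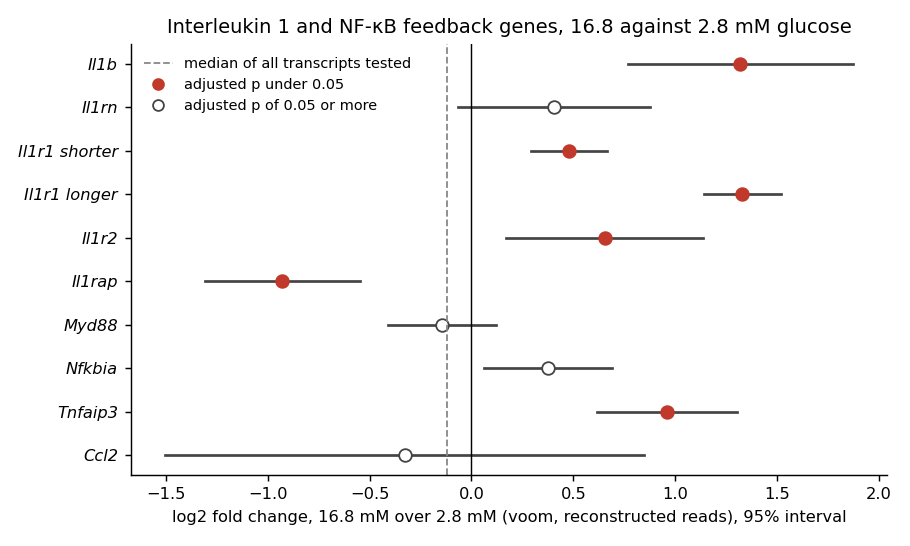
Log2 fold change of 16.8 mM over 2.8 mM glucose with its 95% interval for the 10 entries in the fit to reconstructed reads (voom). Filled points had an adjusted p under 0.05, and the dashed line is the median of all transcripts tested, -0.12.

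*Il1b*, the ligand that is released by activated macrophages and other cells, was low in all libraries and higher at 16.8 mM glucose. It was at 0.136 and 0.156 RPKM at 2.8 mM and at 0.418 and 0.310 RPKM at 16.8 mM glucose. These values stood for 52 and 53 reads against 167 and 103 reads, and the groups did not overlap, as held for 70.4% of the transcripts of the fit to reads. The rise was 2.50-fold (log2 fold change 1.32 ± 0.26 SE, voom, adjusted p = 0.00060), and it was called without any 1 library (adjusted p from 0.00021 to 0.030, voom). The *Il1b* gene lies at chr2:129190306-129196875 on the minus strand (mm9), where a non-coding transcript on the other strand, *Gm14047*, overlaps it by 1243 bp. The share of the reads that came from *Gm14047* was not tested.

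*Il1rn*, which encodes the secreted antagonist that competes with interleukin 1 for its receptor, had 0.349 and 0.503 RPKM at 2.8 mM and 0.485 and 0.637 RPKM at 16.8 mM glucose. The groups overlapped, and replicate 2 was the higher library in both. The difference did not pass the threshold (log2 fold change 0.41 ± 0.22 SE, voom, adjusted p = 0.16), with a 95% interval from -0.07 to 0.88, and the reads behind it rest on a span that was assumed from the annotation. Of the other distinct *Il1rn* entries, 1 had 0.191 ± 0.044 RPKM at 2.8 mM and 0.250 ± 0.048 RPKM at 16.8 mM glucose (SD, n = 2). Another had 0.421 ± 0.107 RPKM at 2.8 mM and 0.557 ± 0.101 RPKM at 16.8 mM (SD, n = 2), also with overlap between the groups. It came nearer to the threshold without passing it (log2 fold change 0.42 ± 0.18 SE, voom, adjusted p = 0.067), again on an assumed span.

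*Il1r1*, the signalling receptor, had the most reads of these genes in every library and is listed with transcripts from a pair of start sites. The shorter transcript spans chr1:40323431-40373043 on the plus strand (mm9). It was at 6.78 and 6.47 RPKM at 2.8 mM and at 9.27 and 9.21 RPKM at 16.8 mM glucose, a rise from 6.62 ± 0.22 to 9.24 ± 0.038 RPKM (SD, n = 2). Both libraries at 16.8 mM lay above both at 2.8 mM by more than the spread within either group. The rise passed the threshold (log2 fold change 0.45, limma, adjusted p = 0.017) and was 1.40-fold in reads (voom, adjusted p = 0.00030). In the fit to RPKM the call was lost without replicate 1 (adjusted p = 0.061) or replicate 2 (adjusted p = 0.072) at 16.8 mM (limma), and in the fit to reads it was kept without any 1 library (voom).

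The longer *Il1r1* transcript spans chr1:40281925-40373022 and rose far more. It was at 4.38 and 4.22 RPKM at 2.8 mM and at 10.7 and 11.0 RPKM at 16.8 mM glucose. The change was 2.51-fold in reads (log2 fold change 1.33 ± 0.090 SE, voom, adjusted p = 2.0e-09). Its span holds that of the shorter transcript but for 21 bp at the 3′ end, plus 41.5 kb upstream, and the upstream region holds an lncRNA of the deposited table at chr1:40293863-40320916, wholly within intron 1. Reads of the lncRNA are therefore counted in the longer transcript.

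Subtraction showed how the reads of the longer transcript were divided. At 2.8 mM glucose the 2 libraries had 23346 and 19959 reads over the longer span, of which 19668 and 16683 lay in the shorter span and 3463 and 3117 in the lncRNA. At 16.8 mM glucose they had 58951 and 50751 reads, of which 27921 and 23230 lay in the shorter span and 30878 and 27352 in the lncRNA. The lncRNA thus held 14.8% and 15.6% of the reads of the longer transcript at 2.8 mM, and 52.4% and 53.9% at 16.8 mM glucose.

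What remained upstream, over 14.5 kb that include exon 1 of the longer transcript, amounted to 215 and 160 reads at 2.8 mM glucose, against 151 and 169 at 16.8 mM. These remainders overlapped between the groups. As a density they were 0.233 ± 0.030 RPKM at 2.8 mM and 0.201 ± 0.041 RPKM at 16.8 mM (SD, n = 2), where the shorter span had 6.62 and 9.24 RPKM. Nearly all other reads of the longer transcript are those of the shorter span, so its entry gives no separate measure of RNA from the upstream start. The remainders are differences of estimates and carry no test, and the counting as deposited was not stated to use strand.

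**Figure D3:**
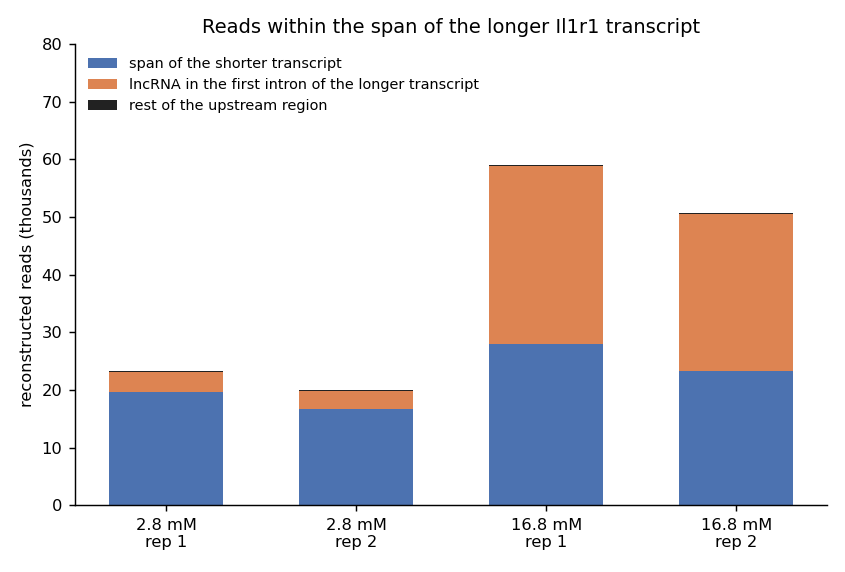
Reconstructed reads (axis in units of 1000 reads) within the span of the longer *Il1r1* transcript in each library, stacked as those of the shorter span, those of the lncRNA in intron 1 and the rest of the upstream region. The lncRNA part grows from between 3117 and 3463 reads at 2.8 mM to between 27352 and 30878 at 16.8 mM glucose, and the rest is a thin line of 151 to 215 reads in all 4 libraries.

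*Il1r2*, a decoy receptor that binds interleukin 1 without signalling, was rare. It had 0.0486 and 0.0414 RPKM at 2.8 mM and 0.0607 and 0.0847 RPKM at 16.8 mM glucose, from 115 and 87 reads against 149 and 174 reads over a span of 40451 bp. The groups did not overlap, and the rise was 1.57-fold (log2 fold change 0.65 ± 0.23 SE, voom, adjusted p = 0.029). This call was lost without 16.8 mM replicate 2 (adjusted p = 0.24) or without replicate 1 or 2 at 2.8 mM (adjusted p = 0.14 and 0.28, voom). The exons are 3.31% of the *Il1r2* span, and a lincRNA on the other strand, *Gm16894*, overlaps it by 1086 bp, so the share of these reads that came from spliced *Il1r2* was not tested.

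*Il1rap*, the accessory chain that IL1R1 needs to signal, was the gene of the group that fell. It was at 0.0537 and 0.0431 RPKM at 2.8 mM and at 0.0281 and 0.0226 RPKM at 16.8 mM glucose. Over its long span of 135987 bp on chromosome 16 these values stood for 427 and 305 reads against 232 and 156 reads. The groups did not overlap and the fold change was 0.525 (log2 fold change -0.93 ± 0.18 SE, voom, adjusted p = 0.00049). The fall was called without any 1 library (adjusted p from 0.00080 to 0.041, voom). The other distinct *Il1rap* entries were at 0.0466 ± 0.0074 and 0.0191 ± 0.0013 RPKM at 2.8 mM, and at 0.0248 ± 0.0030 and 0.0108 ± 0.0021 RPKM at 16.8 mM (SD, n = 2), also without overlap between the groups. In the fit without a minimum the fall of *Il1rap* missed the threshold (adjusted p = 0.068, limma), where 0.5 RPKM added to values this low leaves a log2 difference of -0.06.

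*Myd88*, the adaptor shared by the interleukin 1 and Toll-like receptors, had 3.20 and 2.86 RPKM at 2.8 mM and 2.84 and 2.63 RPKM at 16.8 mM glucose. The groups did not overlap, but the lower library at 2.8 mM and the higher one at 16.8 mM were nearly level. The difference did not pass the threshold (log2 fold change -0.13, limma, adjusted p = 0.35), with a 95% interval from -0.41 to 0.12 in the fit to reads.

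*Nfkbia* and *Tnfaip3* encode inhibitors that NF-κB itself induces: IκBα holds NF-κB in the cytoplasm, and TNFAIP3, or A20, edits ubiquitin on the signalling complex. *Tnfaip3* was at 0.330 and 0.310 RPKM at 2.8 mM and at 0.632 and 0.614 RPKM at 16.8 mM glucose, from 213 and 178 reads against 424 and 345 reads. The replicates lay close together and the groups far apart. The rise was 1.95-fold (log2 fold change 0.96 ± 0.16 SE, voom, adjusted p = 0.00014) and was called without any 1 library (adjusted p from 0.00043 to 0.010, voom). The longer *Tnfaip3* entry went from 0.249 ± 0.014 to 0.491 ± 0.0083 RPKM (SD, n = 2).

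*Nfkbia* was at 4.004 and 3.14 RPKM at 2.8 mM and at 5.30 and 3.988 RPKM at 16.8 mM glucose. Replicate 1 exceeded replicate 2 by 1.27 times at 2.8 mM and by 1.33 times at 16.8 mM, so the higher library at 2.8 mM lay just above the lower one at 16.8 mM and the groups overlapped. The difference did not pass the threshold (log2 fold change 0.33, limma, adjusted p = 0.14, and 0.38, voom, adjusted p = 0.0503). It did pass without 2.8 mM replicate 1 (adjusted p = 0.016) and without 16.8 mM replicate 2 (adjusted p = 0.028, limma), so the 2 feedback inhibitors are not shown to differ in their response.

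NF-κB is known to bind a motif of 10 bases, and the promoter sequences of these genes were searched for its letters. RefSeq windows of 250 bases upstream of a start (GRCm38.p6) were held for 9 of the 10 genes, 13 windows in all. The NF-κB consensus, searched by name on both strands, was found in 4 windows of 4 genes, and in 7.25% of the 32851 windows of all genes. The exact 10 bases that match in *Nfkbia*, read on either strand, were found in 0.0852% of all windows and, of these genes, in *Nfkbia* and *Cxcl1*. The windows with a match and the upstream *Il1r1* start are shown 5′ to 3′ with the consensus in capitals, because they set the start of the longer *Il1r1* transcript, with no match, beside that of the shorter one and beside the feedback genes.
Il1r1 longer: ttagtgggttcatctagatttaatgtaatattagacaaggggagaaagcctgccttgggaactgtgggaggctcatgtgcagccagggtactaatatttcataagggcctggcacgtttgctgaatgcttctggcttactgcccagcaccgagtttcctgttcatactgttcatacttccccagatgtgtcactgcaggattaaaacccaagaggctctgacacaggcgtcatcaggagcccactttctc
Il1r1 shorter: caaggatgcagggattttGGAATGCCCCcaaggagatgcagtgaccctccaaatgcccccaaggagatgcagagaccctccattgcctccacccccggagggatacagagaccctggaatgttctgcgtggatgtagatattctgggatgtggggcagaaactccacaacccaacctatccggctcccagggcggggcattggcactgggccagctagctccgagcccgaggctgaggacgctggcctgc
Tnfaip3: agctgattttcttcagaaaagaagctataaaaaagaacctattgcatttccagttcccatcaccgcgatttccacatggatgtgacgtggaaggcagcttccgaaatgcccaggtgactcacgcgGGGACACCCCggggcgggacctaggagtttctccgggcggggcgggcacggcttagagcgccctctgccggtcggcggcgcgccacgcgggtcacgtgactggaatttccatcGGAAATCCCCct
Nfkbia: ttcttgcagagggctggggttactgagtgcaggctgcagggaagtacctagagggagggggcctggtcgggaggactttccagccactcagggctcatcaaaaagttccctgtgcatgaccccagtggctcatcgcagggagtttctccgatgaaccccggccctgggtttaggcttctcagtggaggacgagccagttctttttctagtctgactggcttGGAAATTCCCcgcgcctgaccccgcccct
Cxcl1: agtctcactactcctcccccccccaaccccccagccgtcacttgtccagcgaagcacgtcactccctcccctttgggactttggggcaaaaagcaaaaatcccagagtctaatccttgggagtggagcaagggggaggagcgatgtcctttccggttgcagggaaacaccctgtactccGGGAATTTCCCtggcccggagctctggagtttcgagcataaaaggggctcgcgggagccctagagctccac
In the order shown they lie at chr1:40224830-40225079 (plus), chr1:40266336-40266585 (plus), chr10:19015411-19015660 (minus), chr12:55492648-55492897 (minus) and chr5:90890995-90891244 (plus). In *Nfkbia* and *Tnfaip3* the nearest match begins 29 and 12 bases upstream of the start and is read on the other strand, and in *Cxcl1* 2 matches on opposite strands overlap. In *Tnfaip3* the farther 10 bases, 125 bases upstream, match on both strands. The windows of *Il1b*, *Il1r2*, *Il1rap*, *Il1rn* and *Myd88* held none. A match describes letters and is no measure of binding, and of the genes with a match *Tnfaip3* and the shorter *Il1r1* transcript were called higher (voom). *Nfkbia* missed the threshold (adjusted p = 0.0503, voom) and *Cxcl1* had too few reads for that fit.

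*Cxcl1* and *Ccl2*, chemokines that draw neutrophils and monocytes and that NF-κB induces in many cells, differed more between libraries at 2.8 mM than between the glucose groups. *Ccl2* was at 0.702 and 0.113 RPKM at 2.8 mM and at 0.255 and 0.210 RPKM at 16.8 mM glucose. *Cxcl1* was at 0.274 and 0.0412 RPKM at 2.8 mM and at 0.176 and 0.137 RPKM at 16.8 mM glucose. In both genes replicate 1 at 2.8 mM was the highest library and replicate 2 the lowest, with both libraries at 16.8 mM in between. An annotated gene on the other strand, *Gm17268*, covers all of *Ccl2*, and its share of the *Ccl2* reads was not tested.

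The gap within the 2.8 mM group was beyond counting error. *Ccl2* had 77 reads in replicate 1 (95% exact Poisson interval 60.8 to 96.2, for counting error only) and 11 reads in replicate 2 (5.49 to 19.7), 6.22 times the RPKM. *Cxcl1* had 30 reads (20.2 to 42.8) and 4 reads (1.09 to 10.2). The difference of *Ccl2* between the groups did not pass the threshold (log2 fold change -0.33 ± 0.56 SE, voom, adjusted p = 0.67). Without 2.8 mM replicate 1 it was 1.01 (adjusted p = 0.32), and without 2.8 mM replicate 2 it was -1.58 (adjusted p = 0.0084, voom), so each sign rested on which library was kept. For *Cxcl1* the log2 difference was 0.02 (limma without a minimum, adjusted p = 0.96), 0.28 without 2.8 mM replicate 1 and -0.24 without 2.8 mM replicate 2.

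Markers of several cell types were also higher in replicate 1 at 2.8 mM glucose, as were 76.4% of the transcripts of the fit to reads, with a median ratio of 1.07 to replicate 2. All 7 stromal genes were, with a median ratio of 2.37, and 3 of 7 at 16.8 mM. So were 7 of 7 endothelial genes (median ratio 1.54), 13 of 14 macrophage genes (1.37), 5 of 5 alpha cell genes (1.31), 2 of 2 delta cell genes (1.44) and 6 of 7 beta cell genes (1.06), whereas none of the 7 acinar genes was (0.369). The summed RPKM of the stromal list was 3.53 and 1.68 at 2.8 mM and 2.56 and 2.74 at 16.8 mM glucose. *Col1a1*, a fibrillar collagen, was at 1.43, 0.596, 0.959 and 1.16 RPKM in the same order. Of the 81 other pathway genes 65 were higher in replicate 1 at 2.8 mM, and 19 of the 22 targets among them. The median ratio of the targets, 1.48, was above those of the macrophage and alpha cell genes. At 16.8 mM these counts were 61 and 13, and the median ratio of the targets was 1.07. The part of any of these cells in the chemokine values was not tested.

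**Figure D4:**
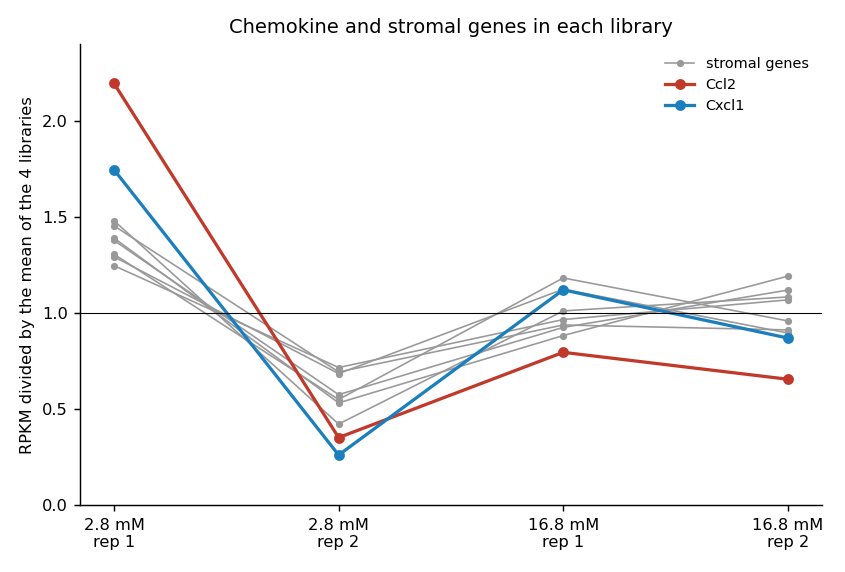
RPKM of *Ccl2*, *Cxcl1* and the 7 stromal genes in each library, divided by the mean of the 4 libraries. All lines are highest in replicate 1 at 2.8 mM and lowest in replicate 2 at 2.8 mM.

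Levels were compared between the genes as reads per kilobase of exon, scaled to depth as RPKM is but with the exon length in place of the span. On this scale the shorter *Il1r1* transcript was at 68.1 at 2.8 mM glucose, followed by *Nfkbia* at 7.33 and *Myd88* at 6.35. *Il1rap* at 1.46, *Il1r2* at 1.36 and *Il1rn* at 1.21 came next, then *Ccl2* at 0.944, *Tnfaip3* at 0.815, *Il1b* at 0.707 and *Cxcl1* at 0.310. The signalling receptor thus stood 46.7 times above its accessory chain at 2.8 mM, and 124 times at 16.8 mM, where *Il1r1* was at 94.9 and *Il1rap* at 0.763. The scale counts intronic reads as exonic, and the exons are only 9.73% of the span of the shorter *Il1r1* transcript and 3.32% of that of *Il1rap*. The levels at 2.8 mM of *Il1rap*, *Il1r2* and *Il1rn* lie close together, and no test was made between genes.

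The wider pathway was described by a list of 81 other genes with an entry in the table. In the fit to RPKM (limma) 24 reached the minimum, of which 3 were higher, 9 were lower and 12 were not called. The median log2 fold change of the 24 was -0.21, against -0.11 over all transcripts tested, of which 10.7% were higher and 22.8% lower. In the fit to reads (voom) 64 were tested, with 8 higher and 17 lower. That was 39.1% called, against 42.6% of all transcripts of that fit (13.7% higher and 28.9% lower). The median log2 fold change of the 64 was -0.06 against -0.12. Without replicate 1 or replicate 2 at 2.8 mM, alternatives chosen after the data were seen, fewer of the 64 were called, as were fewer of all transcripts (voom).

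Among the receptor family, 1 of 7 genes reached the minimum. It was *Sigirr*, an inhibitory member of the family, which fell from 1.54 ± 0.011 to 1.10 ± 0.072 RPKM (SD, n = 2; log2 fold change -0.35, limma, adjusted p = 0.017). *Il1rl2*, the receptor for interleukin 36, had 37 and 27 reads at 2.8 mM glucose, against 64 and 46 at 16.8 mM (log2 fold change 0.76 ± 0.31 SE, voom, adjusted p = 0.056). The interleukin 33 receptor *Il1rl1* and the interleukin 18 receptor chains *Il18r1* and *Il18rap* had between 2 and 22 reads in any library, too few for the test. *Il1rapl1* and *Il1rapl2* were not called (voom, adjusted p = 0.48 and 0.83).

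Between receptor and NF-κB, 10 adaptors and kinases were tested (limma), of which 4 were lower and 1 was higher. Over all transcripts of that fit 22.8% were lower and 10.7% higher. By voom 9 of 20 were lower and 2 higher, against 28.9% and 13.7% of all transcripts. The 2 higher were *Ube2n* and *Irak3* (log2 fold change of *Irak3* 0.49 ± 0.18 SE, voom, adjusted p = 0.035), the latter named after its values were seen. *Sqstm1*, the p62 scaffold, went from 83.1 ± 3.2 to 46.8 ± 5.2 RPKM (log2 fold change -0.83, limma, adjusted p = 0.0057). *Traf6*, the ubiquitin ligase of the interleukin 1 receptor complex, was at 2.05 and 2.15 RPKM at 2.8 mM and at 1.28 and 1.25 RPKM at 16.8 mM glucose (log2 fold change -0.56, limma, adjusted p = 0.0029). *Tab2*, which links TRAF6 to the kinase TAK1, and *Chuk*, the kinase IKKα, fell by 0.42 and 0.34 on the log2 scale (limma, adjusted p = 0.0095 and 0.025). *Ube2n*, the ubiquitin-conjugating enzyme that works with TRAF6, rose by 0.31 (limma, adjusted p = 0.032).

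The NF-κB subunits did not change together. *Nfkb2*, which encodes p100 of the non-canonical pathway, rose from 1.27 ± 0.082 to 2.07 ± 0.23 RPKM (SD, n = 2; log2 fold change 0.54, limma, adjusted p = 0.0065). *Relb*, its partner, was at 0.242 and 0.181 RPKM at 2.8 mM and at 0.340 and 0.290 RPKM at 16.8 mM glucose (log2 fold change 0.58 ± 0.17 SE, voom, adjusted p = 0.010). The canonical subunits *Rela*, *Nfkb1* and *Rel* were not called, with log2 fold changes of -0.07, 0.05 and -0.30 (voom, adjusted p = 0.66, 0.70 and 0.26).

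Other feedback genes included *Nfkbiz*, an atypical nuclear IκB that interleukin 1 is known to induce, which rose from 1.74 ± 0.051 to 2.75 ± 0.38 RPKM (log2 fold change 0.53, limma, adjusted p = 0.0096). *Rnf11* and *Tax1bp1*, which work together with A20, fell by 0.62 and 0.34 on the log2 scale (limma, adjusted p = 0.0042 and 0.028), where *Tnfaip3* itself rose. *Nfkbib*, which encodes IκBβ, was not called (log2 fold change 0.00, limma, adjusted p = 1.0). Of the 17 feedback genes listed, 6 were tested, with 1 higher and 2 lower (limma). Over all transcripts of that fit 10.7% were higher and 22.8% lower, and 6 genes are too few to set these counts apart from those shares. Among 22 target genes 4 were tested and 2 fell, both transmembrane chemokines: *Cx3cl1* by 0.69 (adjusted p = 0.0045) and *Cxcl16* by 0.56 (adjusted p = 0.0041) on the log2 scale (limma). The same limit holds for these 4, against 22.8% lower over all transcripts.

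Some genes under the minimum were named after their values were seen. *Ptgs2*, the inducible cyclooxygenase, had 67 and 34 reads at 2.8 mM glucose, against 120 and 106 at 16.8 mM (2.30-fold higher, voom, adjusted p = 0.0023). *Il1a*, the other agonist ligand of IL1R1, had 230 and 197 reads at 2.8 mM glucose, against 150 and 109 at 16.8 mM, against the direction of *Il1b* (log2 fold change -0.74 ± 0.20 SE, voom, adjusted p = 0.0053). The rise of *Il33*, from 38 and 31 to 67 and 67 reads, was also called (voom, adjusted p = 0.017). *Nos2*, the inducible nitric oxide synthase, had between 3 and 14 reads per library.

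**Figure D5:**
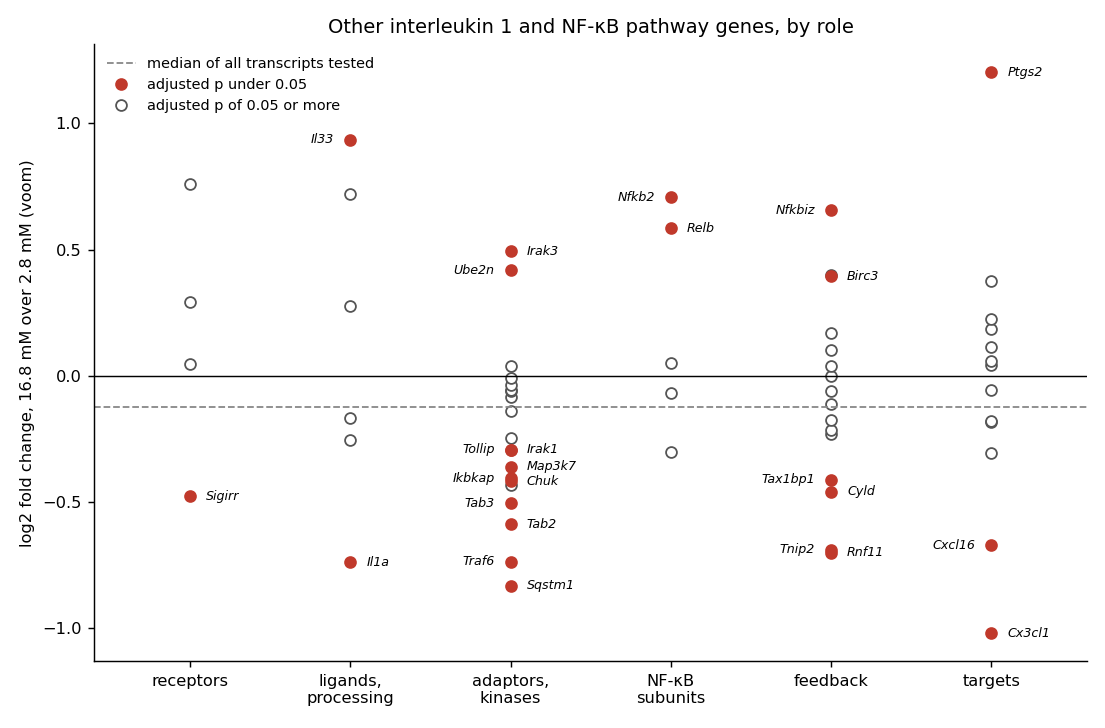
Log2 fold change of 16.8 mM over 2.8 mM glucose (voom, reconstructed reads) for the 64 other pathway genes tested, 1 point per gene, in columns by role. Filled, named points had an adjusted p under 0.05 (8 higher, 17 lower), or 39.1% against 42.6% of all transcripts tested. The dashed line is the median of all transcripts tested, -0.12.

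Leukocytes, which express several of these genes, were followed by their own markers. The summed RPKM of 14 macrophage genes was 26.4 and 19.6 at 2.8 mM and 28.4 and 22.8 at 16.8 mM glucose, so the groups overlapped and replicate 1 was higher in both. *Ptprc*, *Emr1* and *Cd68* were not called (voom, adjusted p = 0.49, 0.83 and 0.57), nor was *Csf1r*, the macrophage growth factor receptor (log2 fold change 0.39 ± 0.18 SE, voom, adjusted p = 0.096). In the fit to reads 3 of the 14 were called, all higher: *Cd14*, *Itgam* and *C1qa*, named after their values were seen. Over all transcripts of that fit 42.6% were called, 13.7% higher and 28.9% lower. The means of *Aif1*, *C1qb*, *C1qc*, *Lyz2* and *Tyrobp* were lower at 16.8 mM, also named after their values were seen, and none of these was called. *Aif1* went from 0.220 to 0.131 RPKM (voom, adjusted p = 0.12). *Cd14*, a co-receptor for bacterial lipopolysaccharide, was at 0.927 and 0.909 RPKM at 2.8 mM and at 1.94 and 1.87 RPKM at 16.8 mM glucose (log2 fold change 0.76, limma, adjusted p = 0.00083). Of 5 lymphocyte genes the T cell gene *Cd3e* is listed at 0 in all 4 libraries, and the highest was *Cd79a* of B cells, with 104 and 85 reads at 2.8 mM glucose against 78 and 46 at 16.8 mM. Of 3 neutrophil genes *S100a8* is listed at 0 in all 4 libraries, while *Csf3r* had 58 and 32 reads at 2.8 mM glucose against 45 and 24 at 16.8 mM and *S100a9* had between 4 and 16 reads. *Cd79a*, *Csf3r* and *S100a9* were named after their values were seen.

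Among the other cell types, *Pecam1* of endothelial cells was at 0.246 and 0.176 RPKM at 2.8 mM and at 0.459 and 0.286 RPKM at 16.8 mM glucose (voom, adjusted p = 0.0017). Of 7 endothelial genes 2 were called higher and 5 were not called (voom), where 13.7% of all transcripts were higher. *Emcn* and *Kdr* had log2 fold changes of -0.42 and -0.05 (voom, adjusted p = 0.059 and 0.84), named after their values were seen. All 7 acinar genes were called higher in the fit to reads (voom), against adjusted p from 0.081 to 0.17 in the fit to RPKM (limma), and their summed RPKM was 100.3 and 286 at 2.8 mM and 240.3 and 496 at 16.8 mM glucose, lowest where *Ccl2* was highest. All 7 beta cell genes, the defining markers of the main islet cell, were also called higher (voom). The part of macrophages, endothelial or acinar cells in the rises of *Il1b*, *Il1r1* and *Tnfaip3* was not tested.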

How the data were processed

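Total RNA of 100 islets per library was sequenced in 4 libraries, 2 at each glucose concentration, from single reads of TruSeq v2 libraries. The authors deposited 1 table of RPKM values, made per the labels with STAR, bedtools and DESeq on mm9 (no versions given). The low values were whole reads over the genomic span (within 0.08 reads) for 75.2% to 76.1% of single-span genes, against 23.3% to 24.4% over exons. Spans were taken from gencode vM1 and, for the lncRNA, from the study's list. RPKM, span and depth gave estimated reads for 87.8% of 28047 distinct entries (of 33923), which are not the authors' counts.

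The main test was limma 3.58.1 (R 4.3.3) with a trend on log2(RPKM + 0.5), for distinct entries with a mean of at least 1 RPKM, with Benjamini-Hochberg adjustment at 0.05. Fold changes on this scale understate low genes. The alternatives were 0.1 or 1 RPKM added, no minimum, a minimum in every library, quantile or median scaling, no trend, the replicate block, each library left out, every distinct entry, and voom on reads (mean of at least 20), with the block or, added after seeing the data, with each library left out. A 2 against 2 exact permutation test cannot go below p = 0.333. The limma and voom fits were tested on simulated data with 200 changed transcripts: limma called 100% of those above the minimum, with 9.3% of its calls unchanged transcripts, and voom 95.4%, with 4.1%. The simulation held far fewer changes than were called in these data and no shift between replicates, so these rates need not hold here. The reconstruction of reads and the other steps were not tested in this way. Other steps used Python 3.11.15, pandas 2.3.3, numpy 2.4.6, scipy 1.17.1 and matplotlib 3.10.9.

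Members and gene lists were chosen with earlier results of these data known. Named were all members, the called pathway genes, the receptor family, the NF-κB subunits and 6 markers, and others are marked in the text. Promoter windows are RefSeq's on GRCm38.p6, and coordinates of transcripts are those of mm9. PCR duplicates could not be told apart.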

Additional observations from a re-analysis of the deposited data

How the results depend on the processing

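Counts of calls moved by over 1.5 times where the test changed. Against 2628 transcripts in the main test, voom on reads called 7489. Of the 11 entries, 2 of 4 tested were called in the main test, 4 of 11 without a minimum and 6 of 10 by voom. The shares over all transcripts were 33.4%, 14.1% and 42.6%. The main test called 12 of 24 pathway genes tested. Leaving out 1 library lowered its calls over all transcripts and moved those among the 4 entries tested either way. The log2 fold changes then lay between 0.42 and 0.48 for the shorter and between 1.21 and 1.26 for the longer *Il1r1* transcript. They lay between -0.19 and -0.06 for *Myd88* and between 0.15 and 0.52 for *Nfkbia* (limma). With voom and 1 library left out, chosen after the data were seen, between 5 and 6 of the entries and between 12 and 25 of the pathway genes were called (12 and 14 without 2.8 mM replicate 1 and 2, 25 and 23 without 16.8 mM replicate 1 and 2), against 25 with all libraries. The call of *Nfkbia* was gained in the main test with at least 1 RPKM in every library, where 3 of 4 entries tested and 2733 of 6909 transcripts were called.

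Libraries with the same replicate number are not described as sharing more than the number and the 1 pool. Among entries with a mean of at least 1 RPKM, replicate 1 was the higher library for 84.5% at 2.8 mM and for 85.6% at 16.8 mM glucose. Across these entries, the deviations of same-numbered libraries from their group means correlated by 0.31 between the 2 glucose groups. The replicate block gave calls for 4067 of 7867 transcripts, 3 of the 4 entries tested and 16 of the 24 pathway genes tested. Voom with the replicate block gave 10175 of 17567, 8 of 10 and 34 of 64. Under the block *Nfkbia* was called in both tests (adjusted p = 0.018, limma, and 0.0024, voom), and *Il1rn* by voom (adjusted p = 0.040 against 0.16). Without a minimum, limma with the replicate block called 0 of the 11 entries and 0 of 26272 transcripts (lowest adjusted p = 0.051), of which 10521 had an unadjusted p under 0.05, so the calls of *Il1b*, *Il1r1* and *Tnfaip3* in the fit without a minimum and without the block ended there. This fit was chosen after the data were seen.

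No result turned its direction among the 4 entries tested in the main fit. The cause of the differences between tests was not tested, beyond the larger number of transcripts that voom reached. Only 2 libraries per group limit the precision of all values, and counting error adds to this for genes with few reads.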
